A study of Drosophila melanogaster with 2 samples.

Results

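Rotund (rn) is a zinc finger transcription factor of Drosophila melanogaster, and 554 of its 3774 peaks lay inside introns at more than 5000 bp from any annotated transcript start. These far intron peaks made up 14.7% of all peaks (95% Wilson interval 13.6 to 15.8). A peak was counted where its summit fell in a gene body and in no exon, with the nearest start on either strand over 5000 bp away. Gene models came from Ensembl release 115, without transposons or pseudogenes. Peaks were taken from the thresholded set that the authors made from both replicates together, and those on the 5 long arms and the small arm 4 of the dm6 assembly were used. The data are chromatin immunoprecipitation with sequencing (ChIP-seq), in which sheared chromatin bound to a protein is pulled down and sequenced. Whole pupae of strain rn-GFP, a transgenic insertion that targets rn and makes an rn-eGFP fusion protein, were precipitated with an anti-GFP antibody, in 2 biological replicates of this 1 group. Pupal stage and sex are not given, whole animals mix all tissues, and no other genotype, treatment or control library was analysed here, so no conditions were compared.

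Introns far from a transcript start are a usual home of enhancers, the stretches of DNA that transcription factors bind to switch a gene on in a given tissue or stage. In flies the long introns of signalling and patterning genes are known for holding many such elements, often kilobases away from the promoter they act on. Rotund has zinc fingers of the C2H2 type and is known for its part in patterning the leg, the antenna and the wing, where the bric-à-brac genes bab1 and bab2 act in the same tissues. A peak inside a gene does not show that the gene is regulated from there, and genes below are named only as the hosts of the peaks.

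The DNA at most of the strongest far intron summits was rich in A and T. The lines below give the summit base and 50 bp on each side of it for the 6 far intron peaks with the highest signal, leaving out 1 autosomal arm whose sequence is not printed, followed by a bab1 peak, which was added because bab1 acts in the tissues that rn patterns. The last line is the flank of the JIL-1 peak, 500 bp to the right of its summit, shown for comparison. All are the plus strand of dm6 (Release 6), 5′ to 3′, and capitals mark runs of 6 or more bases that hold only A or T.
CG32486, 3L:3060761-3060861: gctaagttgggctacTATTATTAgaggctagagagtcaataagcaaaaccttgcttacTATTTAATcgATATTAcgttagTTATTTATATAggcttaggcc
JIL-1, 3L:11084732-11084832: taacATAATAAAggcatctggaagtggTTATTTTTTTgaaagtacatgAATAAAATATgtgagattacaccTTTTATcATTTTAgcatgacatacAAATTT
Raf, X:2300646-2300746: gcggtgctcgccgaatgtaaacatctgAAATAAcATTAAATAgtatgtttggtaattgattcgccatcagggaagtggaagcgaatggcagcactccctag
lncRNA:CR32773, X:4590158-4590258: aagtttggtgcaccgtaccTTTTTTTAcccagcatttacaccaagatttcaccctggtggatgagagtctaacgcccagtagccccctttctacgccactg
Myc, X:3381865-3381965: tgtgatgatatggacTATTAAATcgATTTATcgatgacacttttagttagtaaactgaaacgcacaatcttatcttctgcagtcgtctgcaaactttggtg
dpp, 2L:2433587-2433687: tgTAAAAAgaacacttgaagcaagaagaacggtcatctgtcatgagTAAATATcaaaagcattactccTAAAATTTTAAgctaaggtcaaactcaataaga
bab1, 3L:1089398-1089498: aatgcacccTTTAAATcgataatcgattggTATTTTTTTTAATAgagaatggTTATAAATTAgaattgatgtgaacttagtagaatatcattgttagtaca
JIL-1 flank, 3L:11085232-11085332: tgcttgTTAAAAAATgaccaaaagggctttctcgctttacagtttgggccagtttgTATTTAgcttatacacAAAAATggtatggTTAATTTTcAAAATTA
The longest run without G or C measured 11 bases at the CG32486 summit, 10 at JIL-1, 11 at dpp and 14 at bab1. Raf, lncRNA:CR32773 and Myc each reached 8. G and C made up 25.7% of the JIL-1 summit window, against 31.7% of its flank. CG32486, Myc, dpp and bab1 had 34.7%, 35.6%, 31.7% and 25.7%. Raf at 44.6% and lncRNA:CR32773 at 49.5% were the richest in G and C of these summits.

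Across the 554 far intron peaks, G and C took 33.3% ± 10.8 (SD over peaks) of the 51 bp at the summit. The share was 46.5% centred 200 bp to the left and 46.1% centred 200 bp to the right, and at 500 bp it had come back to 41.7% and 41.6%. The summit lay below both shoulders and the shoulders above the outer flanks by more than the 95% error over peaks. The 276109 tiles of the same length as the sequences above, cut from far intron sequence, averaged 40.2% ± 9.15 (SD over tiles). Intron peaks at 500 to 5000 bp from a start, called near intron peaks below, had a like profile, with 33.1% at the summit. Among far intron peaks the 139 strongest had 30.9% ± 9.42 at the summit and the 139 weakest 38.2% ± 13.0.

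**Figure D1:**
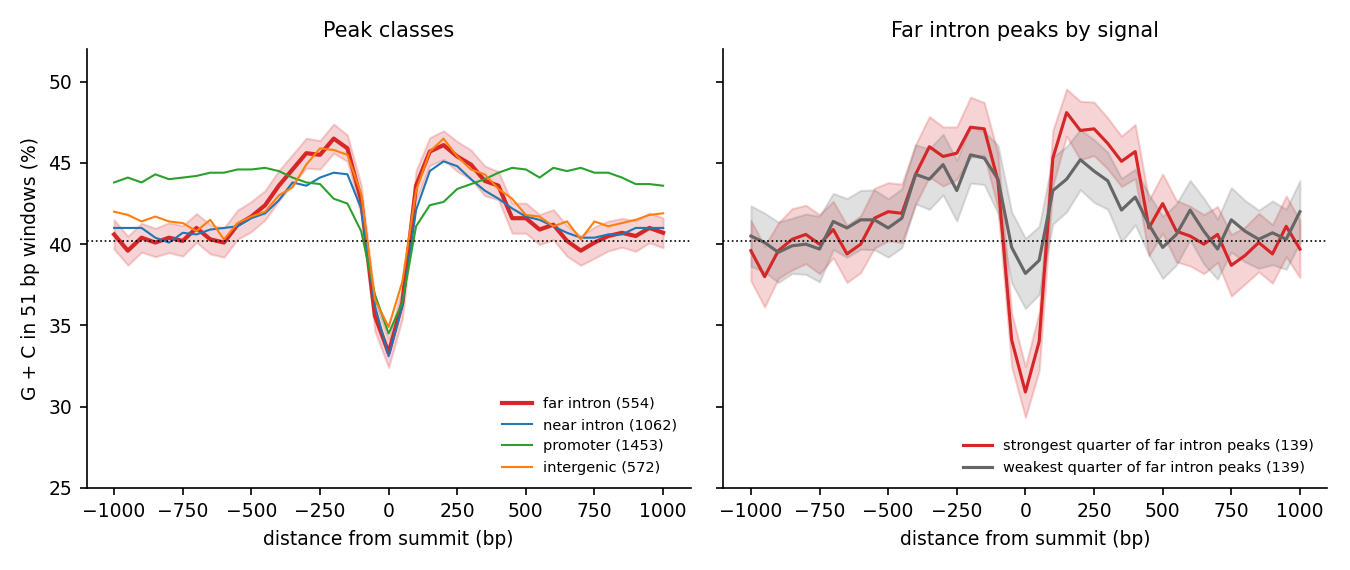
Mean percent G and C in 51 bp windows (vertical axis) against distance from the peak summit in bp (horizontal axis), with shaded 95% intervals over peaks for far intron peaks, by peak class (left) and for the strongest and weakest far intron peaks (right). The dotted line is the 40.2% of far intron tiles. Far intron peaks dip to 33.3% at the summit between shoulders of 46.5% and 46.1%, the 139 strongest to 30.9% and the 139 weakest to 38.2%.

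Runs of 10 or more A or T bases occurred within 50 bp of 301 far intron summits, or 54.3% (95% Wilson interval 50.2 to 58.4). In the flanking windows centred 500 bp away on each side, 382 of 1108 held one, or 34.5% (31.7 to 37.3). Intervals here and below cover counting error over peaks only. The share was 58.3% for the 139 strongest and 41.7% for the 139 weakest, whose intervals, 50 to 66.1 and 33.9 to 50, met. Near intron summits were at 52.5%, promoter summits at 57.3%, intergenic summits at 46.9% and all peaks at 53.1%. Summit windows of far intron peaks were soft-masked as repeats over 22.7% of their bases, against 26% of the tiles.

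Of 20 short motifs searched on both strands in the same windows, 4 had summit and flank intervals that did not meet. AAAAAAA stood in 122 far intron summits, or 22.0% (18.8 to 25.7), against 12.8% of flanks (11.0 to 14.9) and 10.6% of far intron tiles. Over all peaks it stood in 17.7%. TTTAAA stood in 98 summits, or 17.7% (14.7 to 21.1), against 10.7% of flanks (9.05 to 12.7) and 10.5% of tiles, with 19.6% over all peaks. These 2 words share A and T runs and can overlap each other.

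CACACA and GCCAT were less frequent at the summits than beside them. CACACA, a repeat word, stood in 32 far intron summits, or 5.78% (4.12 to 8.04), against 11.1% of flanks (9.38 to 13.1) and 9.27% of tiles, with 6.89% over all peaks. GCCAT, the core bound by the Polycomb group recruiter Pleiohomeotic, stood in 68 summits, or 12.3% (9.80 to 15.3), against 21.0% of flanks (18.7 to 23.5) and 19.7% of tiles, with 13.2% over all peaks. Base composition differed between summits and flanks in the same way, and its part in these shares was not tested. TATCGATA, the element of the insulator factor BEAF-32 and of DREF, was in 0 of 554 far intron summits, a count that allows up to 0.542% (3 counts of the total), and in 1.72% of promoter summits. Its flanks were at 0.181% and the tiles at 0.219%.

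For this element and the other 15 motifs the summit and flank intervals met. Shares follow as summits, flanks and tiles. Homeodomain proteins are known to bind TAATTA, which stood in 8.48%, 5.32% and 7.22%, and GATA factors bind GATAA, with 20.9%, 17.6% and 18.4%. The forkhead core TGTTTA had 12.3%, 9.75% and 9.88%, and the Sox core ACAAT 30.7%, 26.7% and 26.8%. GAGA factor binds GAGAG, which stood in 10.8%, 12.8% and 11.5%.

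E-box words CANNTG, bound by bHLH proteins, stood in 38.8%, 42.8% and 38.4%. Its special cases were rarer: CAGCTG had 2.35%, 4.15% and 3.48%, and CACGTG had 0.361%, 0.993% and 1.07%. Any window with either of these also counts for CANNTG. The early activator Zelda binds CAGGTA, with 1.44%, 1.99% and 1.94%. Nuclear receptors bind AGGTCA, with 2.53%, 2.44% and 2.55%, and AP-1 binds TGANTCA, with 2.17%, 2.17% and 1.94%.

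ETS factors bind CCGGAA, which had 1.44%, 1.90% and 2.42%. The TEAD partner Scalloped binds GGAATG, with 3.43%, 4.15% and 4.8%, and Su(H) binds TGGGAA, with 4.69%, 6.23% and 6.31%. The word AGGAC had 5.23%, 5.69% and 10.2%. A match describes the letters only.

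By median, far intron peaks had lower signal than promoter peaks and were close to the other intron peaks. The deposited signal of a peak is the authors' own value, with no unit stated, and it serves to rank peaks within a list. Its median was 76.5 over far intron peaks (quartiles 59.9 and 110, range 2.33 to 675), 79.6 over near intron peaks, 74.3 over intergenic peaks and 85.0 over promoter peaks, which lie within 500 bp of a start. Of the 100 strongest peaks of the whole set, 4 were far intron, 23 near intron, 64 promoter, 5 intergenic and 4 exon peaks. In that order these classes made up 14.7%, 28.1%, 38.5%, 15.2% and 3.52% of all peaks. With 1 group there is no test of these differences. The 7 far intron peaks below a signal of 20 each overlapped another peak, so the replicate value given for them may be that of the neighbour.

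In each replicate's own ranked list, the overlapping peak with the nearest summit had a median signal of 42.5 in replicate 1 (quartiles 32.0 and 59.9) and 36.9 in replicate 2 (27.7 and 53.2). The summits lay a median of 11 bp and 12 bp from the pooled ones. Across the 547 far intron peaks with a value in both lists, Pearson's r was 0.845 and Spearman's rho 0.622. These points are sites of the same pair of libraries that made the pooled set, so the correlation describes the libraries. For promoter peaks r was 0.942.

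Each replicate also had a thresholded list of its own. A far intron peak was met by a called peak of both replicates in 226 cases, or 40.8% (36.8 to 44.9), where the share over all peaks was 41.5%. Neither list called 161 of them, or 29.1% (25.4 to 33.0), against 27.2% over all peaks. Replicate 1 alone called 106 and replicate 2 alone 61. The conservative set held 467, or 84.3%, with 85.2% over all peaks. An irreproducible discovery rate (IDR) of 0.001 or lower, stricter than the 0.01 of the thresholded set, kept 293, or 52.9%, with 55.9% over all peaks. Each share lay near that over all peaks, and no difference is read from them.

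Strength and replication went together. Of the 139 strongest far intron peaks (signal 111 to 675), 133 were called in both replicates and 0 in neither, which allows up to 2.16% by the same floor of 3 counts. Of the 139 weakest (2.33 to 59.8), 3 were called in both and 105 in neither. Those called in both include CG31145 at 3.64 and brat at 6.52, which overlapped another peak, so their calls may be those of the neighbour. The pooled signal is made from the same reads, so this is a description of where the replicates' thresholds fall.

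**Figure D2:**
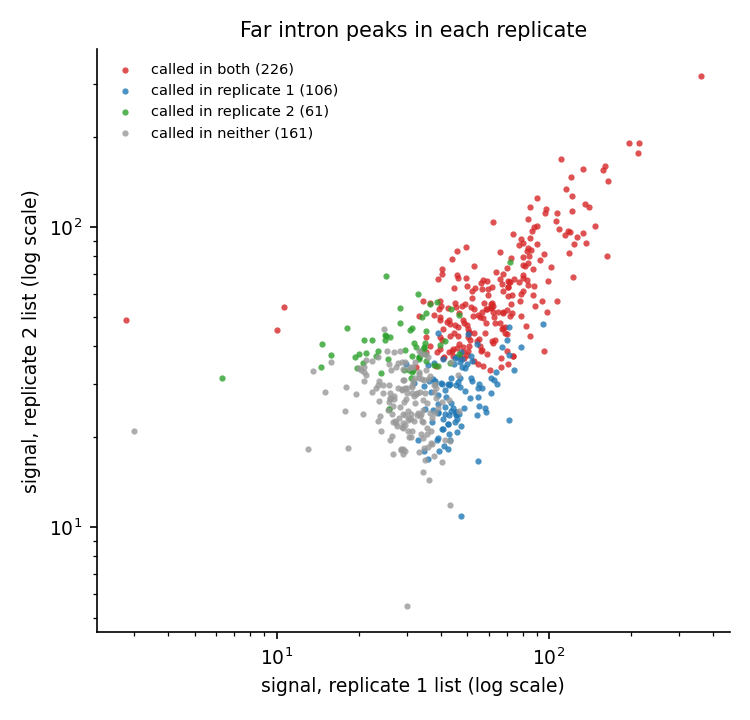
Signal of each far intron peak in the replicate 1 list (horizontal axis, log scale, deposited units) against the replicate 2 list (vertical axis, log scale), coloured by whether both, 1 or neither replicate's thresholded list called it. Most of the 226 peaks called in both sit at the upper right and most of the 161 called in neither at the lower left, and 7 peaks without a value in 1 list are not drawn.

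The highest far intron peak lay in the first intron of CG32486 at a signal of 675, rank 15 of all peaks, with 361 in replicate 1 and 319 in replicate 2. JIL-1, which encodes a chromosomal kinase of histone H3, held the next at 406 (214 and 191 in replicates 1 and 2). Genes of the Polycomb and Trithorax groups were both among the 20 strongest: Psc, a subunit of the Polycomb repressive complex, had 394 (212 and 177), and trx, a histone methyltransferase, had 279 (111 and 169). The replicates lay closest for lncRNA:CR32773, Myc and Raf and farthest apart for PRAS40, a regulator of TOR complex signalling, which had 240 pooled, 163 in replicate 1 and 79.8 in replicate 2.

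Raf, the kinase that carries receptor tyrosine kinase signals, had 390 (197 and 191), and Myc, the growth-promoting transcription factor, 308 (158 and 155). A peak of dpp, the BMP ligand that patterns wing and leg, had 304 (164 and 142) in the first intron, 5265 bp from the nearest start. The Hippo pathway scaffold gene kibra had 286 (133 and 156). A peak of vn, the neuregulin-like EGFR ligand, had 228 (133 and 95.2), and one of wdb, a regulatory subunit of protein phosphatase 2A, 226 (137 and 88.3).

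The 20 strongest also held 3 genes of the ecdysone response. The ecdysone list used below held 34 of the 546 far intron peaks in protein-coding genes, and no excess is read from 3 genes. E23, an ecdysone-induced ABC transporter, had 252 (115 and 134), the nuclear receptor gene Hr4 250 (121 and 127) and the nuclear receptor gene Eip75B 236 (121 and 113). The first 20 were completed by lncRNA:CR32773 at 324 (161 and 160), the corepressor gene sbb at 269 (120 and 147), heca at 260 (136 and 119), the overlapping genes Su(Tpl) and Mi-2 at 257 (140 and 117), CG46385 at 245 (148 and 101.4) and dnr1 at 223 (127 and 92.8). Su(Tpl) encodes an elongation factor and Mi-2 a nucleosome remodeller, and 1 peak lay in introns of both. All 20 were called in both replicates.

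Far intron peaks lay a median of 9.26 kb from the nearest start (quartiles 6.58 and 14.2 kb, longest 47.6 kb). Of them, 252 (45.5%) were beyond 10 kb and 72 (13.0%) beyond 20 kb. The nearest start belonged to a host gene in 325 cases (58.7%) and to another gene in 229 (41.3%). For 271 (48.9%) the intron was the first of at least 1 transcript. The introns themselves had a median length of 20.1 kb and a longest of 126 kb.

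The farthest peak, at 47650 bp in hth, a homeodomain partner of Hox proteins, had a signal of 64.5 (31.4 and 32.8 in replicates 1 and 2). A peak in CG42747 at 40999 bp had 67.2 (55.0 and 16.6), and a peak in ds, a large cadherin of the Fat pathway, had 67.0 (22.4 and 42.1) at 39568 bp. These 3 were below the median of all far intron peaks. Just inside the 5000 bp limit lay peaks in ush at 5004 bp (61.9), CG46339 at 5017 bp (134) and Tis11 at 5027 bp (62.3). Just outside it lay peaks in shep at 5000 bp (243), mtgo at 4998 bp (54.6) and cv-c at 4995 bp (148).

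Far intron sequence, meaning intron bases over 5000 bp from every start, covered 28.4 Mb, or 21.2% of the 6 arms, and carried 19.5 peaks per Mb. Near intron sequence carried 43.5 per Mb, promoter sequence 81.0, intergenic sequence 15.6 and the arms as a whole 28.2. Peaks thinned out with distance inside introns: 63.4 per Mb at 0.5 to 1 kb (95% Poisson interval 56.1 to 71.3), 45.8 at 1 to 2 kb (40.9 to 51.1), 35.6 at 2 to 5 kb (32.4 to 39.0), 27.4 at 5 to 10 kb (24.4 to 30.6), 21.1 at 10 to 20 kb (18.2 to 24.5) and 8.13 beyond 20 kb (6.36 to 10.2). Their median signal over the last 3 steps was 76.7, 78.7 and 73.6, and 40.1%, 42.2% and 40.3% were called in both replicates. Over the first 3 steps, within 5 kb, the median signal was 85.1, 81.0 and 76.9, and 46.4%, 37.8% and 36.4% were called in both. So beyond 5 kb the number per Mb changed with distance while signal and replication stayed near the values of all far intron peaks. Nearer to a start, signal and replication changed as well.

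The step beyond 20 kb depended on a few very long genes. The 20 genes with the most far intron sequence included Myo81F, with 1934.8 kb and no far intron peak, and 16 of the 20 had none. Repeats covered 40.9% of that sequence in Myo81F, while the share beyond 20 kb was 32.7%, against 22.1% at 5 to 10 kb. In an alternative chosen after these counts were seen, those 20 genes were left out, which gave 16.7 per Mb beyond 20 kb (65 peaks, 12.9 to 21.3) and 24.0 per Mb over all far intron sequence (537 peaks, 22.1 to 26.2). Over sequence and summits not masked as repeats the value beyond 20 kb was 8.22 per Mb. The part of repeats within those 20 genes was not tested. Among the same 20 genes, kirre held 9 peaks in 226 kb, SKIP 5, pum 2 and Ten-a 1, while bru3 held 0 in 215 kb and Rbp6 0 in 141 kb.

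**Figure D3:**
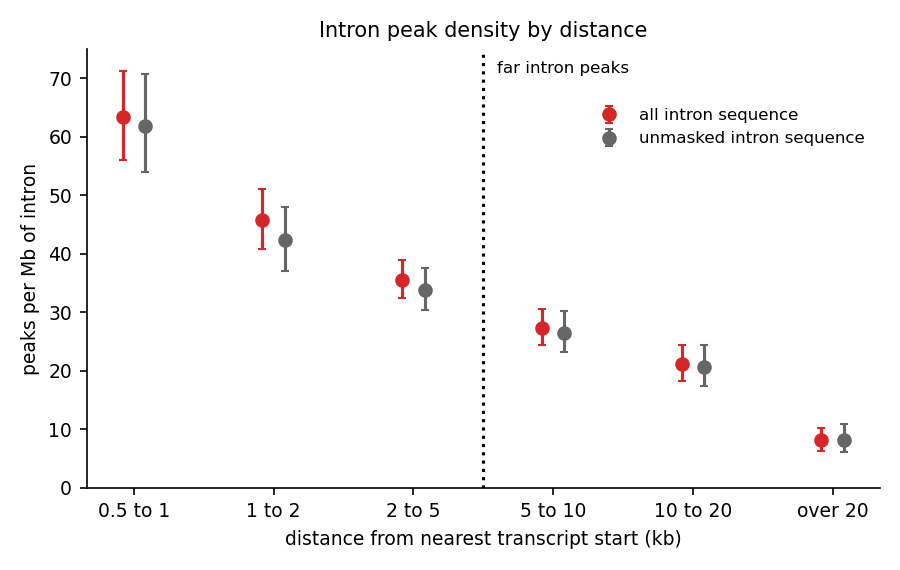
Peaks per Mb of intron sequence (vertical axis, from 0) by distance from the nearest transcript start in kb (horizontal axis), with 95% Poisson intervals, in red for all intron sequence and in grey for peaks and sequence not masked as repeats. The red points run from 63.4 per Mb at 0.5 to 1 kb to 8.13 beyond 20 kb, and the grey points from 61.9 to 8.22.

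By arm, X had 126 far intron peaks, or 23.4 per Mb of its far intron sequence, with a median signal of 81.8. The autosomes together had 428, or 18.6 per Mb, with a median of 74.8. Among them 2L was at 23.1 per Mb, 3L at 18.7, 3R at 17.6 and 2R at 17.4. Arm 4 had 0 peaks in 0.266 Mb, and a count of 0 there allows up to 11.3 per Mb. These densities include the 20 genes with the most far intron sequence. Of those genes kirre, Ten-a and dpr8 lie on X and the rest on autosomes. Myo81F and Pzl, both on 3R, have 1934.8 and 690 kb of it and no far intron peak. Densities by arm without those genes are not given, so no order of arms is read.

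The 554 peaks lay in 300 genes, 289 of them protein-coding, and 36 of the peaks lay in 2 or more genes. Of 1767 protein-coding genes with any far intron sequence, 16.4% held one. A single peak was found in 165 of the 300 genes, 2 or more in 135 and 5 or more in 19. Neighbouring far intron peaks stood a median of 38.0 kb apart, and 154 of 549 gaps were under 5 kb. Merging overlapping peaks left 546.

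Snoo, which encodes a Ski family corepressor of Smad proteins, held the most, 13 peaks in a gene of 93.0 kb (2L:7891187-7984196). They had signals of 211, 179, 137, 120, 113, 96.7, 73.3, 64.6, 61.7, 55.2, 51.7, 48.9 and 18.5, all in an intron of 78.4 kb. The strongest had 106 in replicate 1 and 105 in replicate 2. Of the 13, 6 were called in both replicates and 1 in neither, and each replicate's own list placed 9 far intron peaks there. No peak of Snoo was of another class.

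Hr4, whose nuclear receptor acts in the ecdysone response, held 10 peaks in 66.0 kb (X:1941940-2007956). The 5 strongest, at 250, 212, 179, 154 and 107, were called in both replicates, and the other 5, from 88.7 down to 52.3, in 1 replicate or none. The first 2 had 121 and 127, and 97.5 and 115, in replicates 1 and 2. These 10 sat in 4 different introns, 5.82 to 37.9 kb into the gene.

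The corepressor gene sbb also held 10, out of 21 peaks of all classes in its body of 79.1 kb. Their signals were 269, 148, 141, 127, 89.4, 84.3, 66.7, 63.7, 52.6 and 51.9, and 5 were called in both replicates. In heca, a gene known for its part in imaginal cells and tracheal branching, 9 peaks had signals of 260, 164, 116, 86.1, 74.1, 74.0, 70.5, 62.3 and 59.0, and 4 were called in both.

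In kirre, an adhesion gene of myoblast fusion, 9 far intron peaks lay close together. All were in intron 4 of a gene of 394 kb, 270 to 313 kb from its 5′ end (X:2740384-3134532). Signals were 220, 167, 162, 149, 127, 111, 87.6, 60 and 54.1, and the 7 strongest were called in both replicates. The strongest had 107 and 111 in replicates 1 and 2. Per 10 kb of far intron sequence kirre had 0.398 peaks, below 1.73 in Snoo and 2.46 in Hr4.

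Among hosts with 6 to 8 peaks, the non-coding gene lncRNA:CR44357 had 8, of which 7 also lay in CG1677 or Cph. Tet, a gene of the TET dioxygenase family, had 7, with 129 at the top (72.5 and 55.5). The Cul3 adaptor gene rdx, a Hedgehog target, also had 7, with 170 (83.5 and 85.1), 166 (77.5 and 86.8) and 113 (66.2 and 48.0) at the top and 5 called in both replicates. Grip, which encodes a PDZ protein of muscle, had 6 in 11.3 kb, the densest of these hosts at 5.30 per 10 kb, although 1 of the 6 was called in both replicates. In hth 6 peaks had signals from 61.0 to 86.5 and 0 were called in both. All but the strongest of these lay between 60 and 76.4, where 3.62% of far intron peaks were called in both. The Krüppel-like factor gene luna had 6, with 149 (94.4 and 56.5) at the top and 3 called in both. CG46467 and Glut4EF share 6 peaks, of which the strongest had 130.

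**Figure D4:**
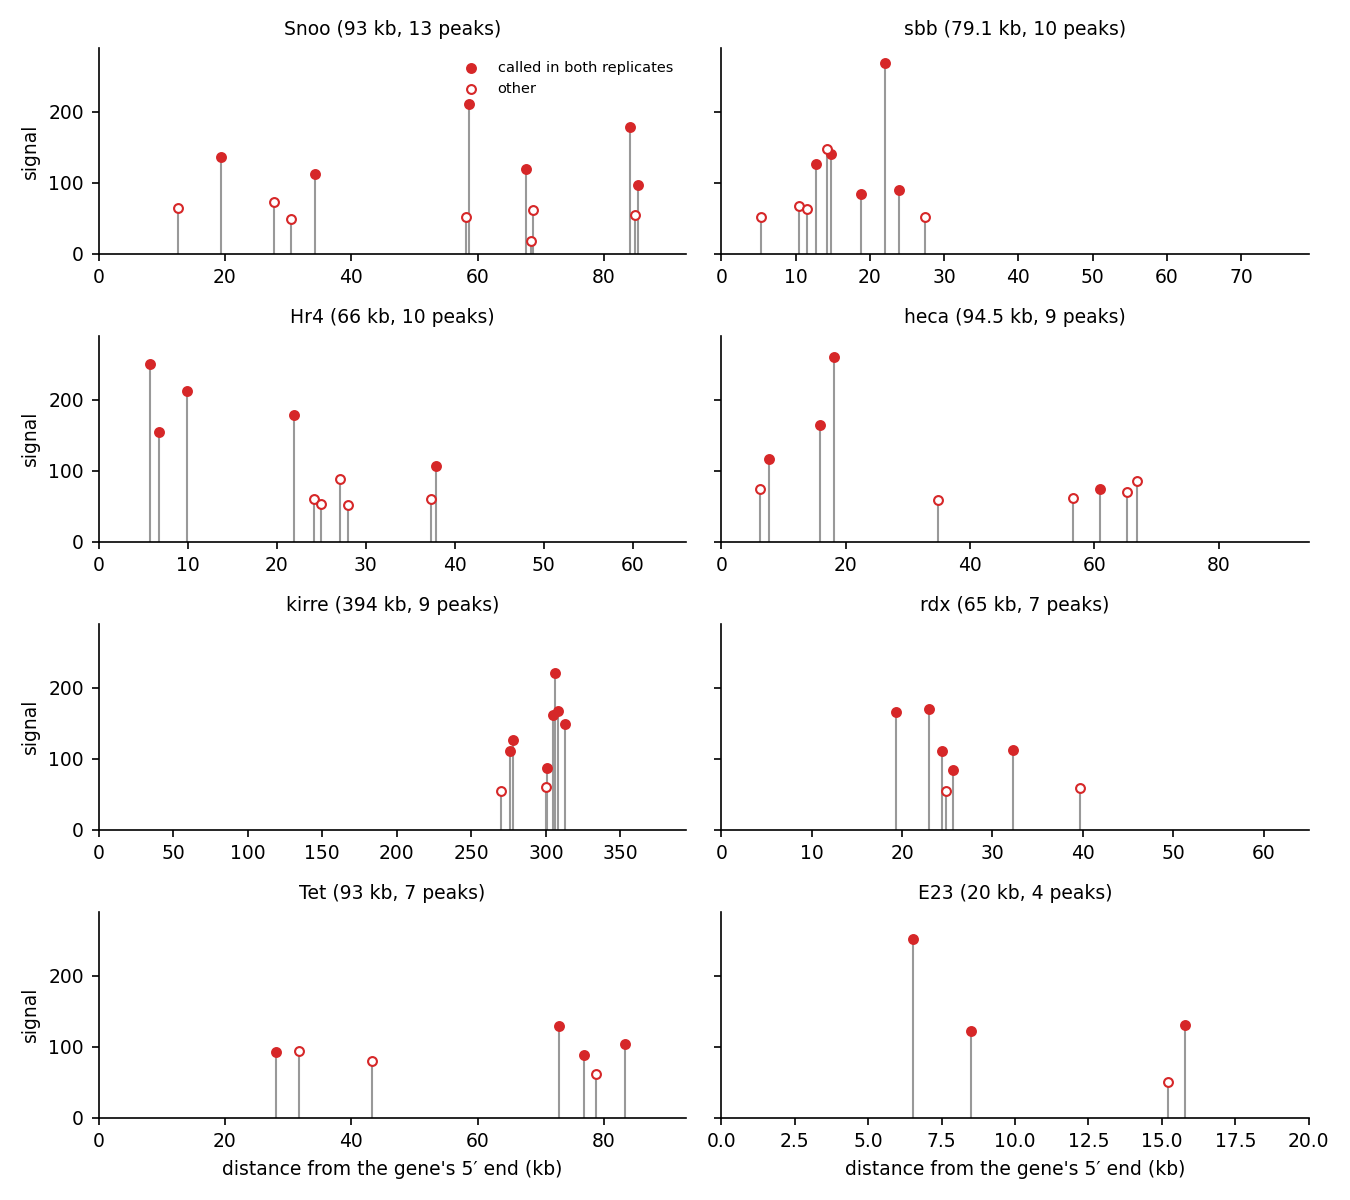
Far intron peaks along 8 host genes, drawn as stems at their distance in kb from the gene's 5′ end (horizontal axis) with the deposited pooled signal as height (vertical axis), filled where both replicates' lists called the peak and open otherwise. The 9 peaks of kirre stand between 270 and 313 kb, while the 13 of Snoo spread over its intron of 78.4 kb.

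Rotund's own gene held none of these peaks. rn (37.0 kb) has 5.80 kb of far intron sequence and 3 near intron peaks, and sqz, its close homologue, has no far intron sequence. bab1 held 3 far intron peaks in 55.8 kb, which were all the peaks in its body. They had signals of 122 (59.9 and 62.2 in replicates 1 and 2), 105 (74.0 and 37.3) and 78.5 (49.0 and 34.0). bab2 held 1 at 61.9 (33.6 and 28.2), which neither replicate's list called.

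Peaks in genes of 15 lists of pathways and gene kinds were counted next, over the genes of each list that have far intron sequence. A percent is of those genes, and the value for all protein-coding genes is the 16.4% given above, or 19.7 peaks per Mb. The lists share genes, and they were chosen with results of these data known, so their counts are descriptions. Gene lengths differ between lists, and longer genes have more room for a peak. The far intron peaks of each replicate's own thresholded list were counted in the same genes, since for most lists a single replicate's list held fewer by more than 1.5 times.

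The Dpp pathway stood highest by share, although the intervals of other lists met its own. Of its 12 genes with far intron sequence, 10 held a far intron peak (83.3%, Wilson interval 55.2 to 95.3), with 16 peaks or 88.2 per Mb. Intervals were 44.4 to 85.8 for ecdysone response, 35.4 to 84.8 for EGFR signalling and 25 to 84.2 for planar polarity. Beside dpp the hosts were shn, a zinc finger cofactor of Smad proteins, at 202 (97 and 111), and the glypican genes dlp at 141 (68.0 and 69.7) and dally at 121 (44.1 and 78.1). The extracellular BMP binders cv-2, with 4 peaks up to 93.1 (56.7 and 29.2), and sog at 81.8 (43.5 and 35.6) followed. The inhibitory Smad gene Dad had 81.2 (42.8 and 38.2), the target gene bi 3 peaks up to 73.1 (35.8 and 37) and the receptor gene tkv 2 up to 63.9 (42.8 and 29.7). The list also counts babo, a receptor gene of the related Activin branch, at 59.8 (32 and 30.2). Of the cv-2, bi and tkv peaks 0 were called in both replicates, and all 3 of bi in neither, while the Dad peak was called in both. Ligand, binders, a receptor, an inhibitor and a target of the Dpp pathway were all among the hosts. salm and salr held none in 0.772 and 1.87 kb. In place of 16, the lists of replicates 1 and 2 alone placed 11 and 5 peaks in these genes. By density the first place was narrow, with 86.9 per Mb in the Hippo and growth list and 82.9 in EGFR signalling. Near intron density was high as well, at 153 per Mb for Dpp, 177 for EGFR and 109 for Hippo genes. Over all protein-coding genes with far intron sequence it was 42.7. In replicate 2 the first place by far intron density did not hold. There the 5 peaks of Dpp genes over 0.181 Mb compare with 23 over 0.417 Mb in ecdysone response genes.

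Of 16 ecdysone response genes, 11 held one (68.8%), with 34 peaks or 81.6 per Mb, the largest number after the adhesion list and the list of long transcription factor genes. After E23, Hr4 and Eip75B came the early ETS gene Eip74EF at 161 (83.8 and 64.3), the coactivator gene tai at 124 (63.8 and 70.7) with 4 peaks, Hr3 at 124 (84.9 and 43.5) and ftz-f1, the competence factor of the prepupa, at 118 (70.2 and 43.9) with 5 peaks. The Hr3 peak also lay in CG46321 and CG12912. Eip93F, Hr38, Eip78C and br reached 81.9, 59.2, 56.2 and 52.7. EcR, the receptor gene itself, held none in 31.6 kb. Replicates 1 and 2 alone placed 24 and 23 peaks in these genes.

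In the Hippo and growth list 4 of 9 genes held one (44.4%), with 10 peaks: Myc and kibra with 3 each, ds with 3 and the kinase gene wts with 1 at 93.8 (55.8 and 40.3). Replicates 1 and 2 alone placed 4 and 4 there. In EGFR signalling 7 of 11 did (63.6%), with 17 peaks, against 8 and 7 from replicates 1 and 2 alone. These were Raf with 5 up to 390, vn, the ETS gene pnt at 220 (117 and 96.8), S at 109 (73.5 and 37.2), aop at 104, ed with 5 up to 62.9, and ru at 48.5. S and ru act in the ligands' processing, and aop is the repressor that opposes pnt. Egfr, aos, rl and sty held none in 3.46, 6.41, 42.2 and 2.27 kb.

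The Notch list had 5 of 10 genes (50%), with 8 peaks, against 5 and 4 from replicates 1 and 2 alone. It held the receptor gene N at 156 (84.1 and 80.0), the protease gene kuz at 105 (34.4 and 56.8), the ligand genes Delta at 99.3 (59.1 and 37.7) and Ser at 61.3 (42.6 and 29.9), and the coactivator gene mam with 3 up to 60.1. In the Wingless and Hedgehog list 7 of 15 held one (46.7%), led by the coreceptor gene arr at 198 (90.2 and 100.7) and the receptor genes fz at 147 (72.4 and 78.6) and fz2 at 117 (56.1 and 65.0). Its 16 peaks compare with 13 and 12 from replicates 1 and 2 alone. Planar polarity had 4 of 7 (57.1%), with fz, ds and stan, a cadherin gene, at 57.9 (36.5 and 24.0), and its 8 peaks compare with 5 and 5.

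Leg and antenna patterning, the tissue list closest to the known part of rn, had 8 of 26 genes with a peak (30.8%), and 16 peaks or 30.2 per Mb. Only bab1 and hth had a strongest peak above the median of 76.5 over far intron peaks. bab1 led at 122, followed by hth at 86.5 (48.0 and 36.3) and dysf, a bHLH-PAS gene of the leg joints, at 73.7 (45.6 and 29.8), while Antp, ct, Awh, bab2 and pdm3 reached 65.9, 62.6, 62.2, 61.9 and 47.7. The Antp peaks also lay in CG46458. Dll, dac, ss, ap and al were among the 18 that held none, in 13.5, 11.1, 19.8, 6.97 and 2.89 kb of far intron sequence. Replicates 1 and 2 alone placed 8 and 7 peaks there in place of 16. Wing patterning had 6 of 17 (35.3%), with dpp, bs at 214 (114 and 94.4) and hth as the 3 highest, bs being the serum response factor of wing intervein cells, and its 14 peaks compare with 7 and 5 from replicates 1 and 2 alone. The list of homeodomain and other long transcription factor genes had 20 of 67 (29.9%). It shares Antp, Awh and pdm3 with the leg and antenna list. Myc, the HMG-box repressor gene cic at 180 (90.2 and 87.8) and luna led it. Its 47 peaks compare with 29 and 22 from replicates 1 and 2 alone.

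Adhesion and muscle lists came next. Of 42 adhesion and recognition genes 15 held one (35.7%), with 40 peaks, against 23 and 25 from replicates 1 and 2 alone, led by kirre, Cad86C at 206 and Fas3 at 150. Of 16 muscle genes 3 did (18.8%): kirre, the Z-disc gene Zasp52 at 137 (77.9 and 56.8) and the myoblast fusion gene rols at 75.8 (34.3 and 50). Their 12 peaks compare with 8 and 11 from replicates 1 and 2 alone. kirre by itself held 9 of the 12, and 226 kb of the 0.342 Mb of far intron sequence in muscle genes. The same 9 peaks are counted in the adhesion list. Axon guidance had 9 of 38 (23.7%), led by dnt, a Ryk family receptor, at 173, Fas3 and Ten-a at 141, and its 17 peaks compare with 10 and 14.

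Genes of neuronal excitability were at the other end. Of 35 ion channel genes with far intron sequence, 1 held a far intron peak (2.86%, Wilson interval 0.506 to 14.5), which was Ca-beta, a calcium channel subunit gene, at 117 (71.4 and 46.4). Replicate 1 alone also placed 1 peak in these genes and replicate 2 alone 0. The 1 peak of the pooled set made 1.26 peaks per Mb over 0.795 Mb, where the near intron sequence of the same genes carried 7.78 per Mb. RNA-binding protein genes had 5 of 19 (26.3%) but 8.51 per Mb over 1.06 Mb, with 39.8 per Mb in their near introns. The highest 3 were msi at 161 (83.6 and 76.1), brat at 86.4 (48.2 and 48.9) and pum at 85.0 (61.1 and 27.9), and the 9 peaks compare with 9 and 3 from replicates 1 and 2 alone. Over all protein-coding genes with far intron sequence, far and near intron density were 19.7 and 42.7 per Mb. They were 43.6 and 15.6 for wing patterning, 30.2 and 21.2 for leg and antenna, 35.0 and 30.5 for muscle, 81.6 and 80.8 for ecdysone and 27.8 and 30.9 for adhesion genes. The near intron values rest on 3 peaks for wing patterning, 5 for leg and antenna and 8 for muscle. The far intron count of wing patterning, 14, was 7 and 5 with replicates 1 and 2 alone. No order of far and near density is therefore read for these 3 lists. In the remaining lists near intron density was higher by more than in the adhesion list.

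**Figure D5:**
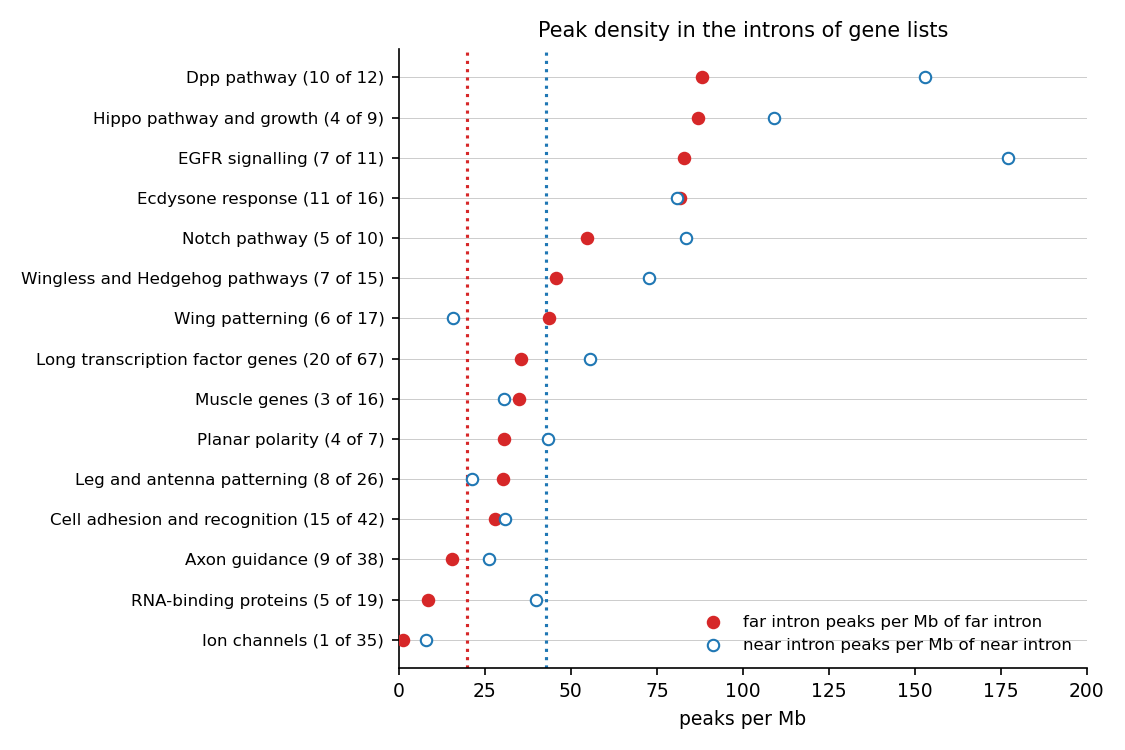
Peaks per Mb of intron sequence (horizontal axis) for each gene list (rows, with the genes that hold a far intron peak out of those with far intron sequence), filled red for far intron and open blue for near intron peaks. Dotted lines mark all protein-coding genes with far intron sequence at 19.7 (red) and 42.7 (blue); far intron density is 88.2 in the Dpp pathway and 1.26 in ion channel genes.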

How the data were processed

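Labels give 2 biological replicates of 1 group. The deposited narrowPeak lists are on dm6, per the labels. Sources used here name no aligner, peak caller or read depth, so the precision of each peak's signal is unknown. The authors' signal is a value per peak whose unit is not stated. The deposited score codes the irreproducible discovery rate (IDR), with 830 at an IDR of 0.01, and the deposited −log10 of the IDR gave the 0.001 subset. Summits were placed in Ensembl release 115 models (BDGP 6.54); sequence came from the NCBI Release 6 genome. A replicate's value is the signal of the overlapping peak (1 bp or more) with the nearest summit in its ranked list. Scripts ran under pandas 2.3.3 and numpy 2.4.6 with Python 3.11.15; intervals used scipy 1.17.1. They were tested on simulated data. Members, motifs and gene lists were chosen with earlier results of these data known; of 529 list names, 18 were older names matched to current symbols through RefSeq synonyms and 3 were not found in the models. Genes named are those of the 20 strongest peaks, the 10 hosts with most peaks, the 3 strongest hosts per list, rn, sqz, bab1, bab2, and those at the distance limits; other list genes and hosts tied at 6 peaks were named after their values were seen. Alternatives were the conservative set, each replicate alone, limits of 2000 and 10000 bp, protein-coding models, an IDR of 0.001, merged peaks and other windows. No p-value is given. Off the 6 arms, 3 peaks were left out.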

Additional observations from a re-analysis of the deposited data

Results flagged for a closer look

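The ranked list of both replicates held 82 peaks on the 6 arms that reached the threshold score of 830 and were absent from the thresholded set. Of these, 11 met the far intron rule, and they were singled out because no count in the report uses them. Their median signal was 70.6 and the highest 274, and 3 were above the upper quartile of the 554 far intron peaks. The strongest lay in tara (3R:16236891-16237014) at 274 and in spen (2L:166479-166774) at 258, and jumu held 2 at 127 and 106. In all, 5 of the 11 lay in tara. Why the thresholded set lacks them was not tested.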

How the results depend on the processing

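The 554 far intron peaks became 1018 at a limit of 2000 bp, 252 at 10000 bp and 293 at an IDR of 0.001; their share of all peaks, 14.7%, became 27.0%, 6.68% and 13.9%, and 16.9% with protein-coding gene models. Host genes, 300, became 519, 137 and 199, and peaks in listed genes, 200, became 329, 98 and 105. Density, 19.5 per Mb, became 24.6, 14.5 and 10.3, 21.1 with protein-coding models and 24.0 without the 20 genes with the most far intron sequence, a setting chosen after seeing the data. Median signal, 76.5, was 78.7 in the conservative set and 107 at an IDR of 0.001, where 76.8% were met in both replicates in place of 40.8%. G and C at the summit, 33.3%, was 32.6% in the conservative set, 33.7% at 10000 bp, 31.4% at an IDR of 0.001 and 33.8% over 50 bp on each side. With 1 replicate's own list in place of the pooled set, there were 298 to 352 peaks (14.1% to 14.8%) in at most 225 genes, with a median signal of 50.9 to 52.7, a density of 10.5 to 12.4, 31.0% to 31.5% G and C, 113 to 131 peaks in listed genes, and 65.3% to 76.5% met by the other replicate. The number of motifs more frequent at summits than flanks stayed between 7 and 10 of 20 in every alternative run. No paired analysis was possible because the samples form 1 group. Depth is not known, so a peak called in 1 replicate cannot be told from one missed in the other.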
